A study of Mus musculus with 120 samples.

Results

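Sim2 (Single-minded 2) was switched on for 39 hours in mouse embryonic stem (mES) cells, and the arrays of that experiment were compared with those of the same inducible cells kept uninduced. The arrays were taken by their titles: 6 arrays name the Sim2 ES clone, 3 at 0 hours and 3 at 39 hours, out of 120 arrays in the whole series. All of them come from EB3 (EBRTcH3) cells, an mES line whose ROSA26 locus accepts a tetracycline-controlled cassette by recombinase-mediated exchange, and all carried the Sim2 transgene, the uninduced cells included. Uninduced cells were grown with tetracycline (Tc), which keeps the transgene silent, and induced cells had been without Tc for 39 hours, both in medium with leukemia inhibitory factor. The transgene was the mouse Sim2 coding sequence with a 3xFLAG tag at its carboxyl end. Each biological rep number of the labels was taken as a pair of arrays. By the clone names in the study's own Sim2 table, rep 1 and rep 2 each join arrays of different clones. Each state was measured in 3 arrays, whose number limits the precision. The Hunk and Ripk4 experiments, of 6 arrays each, were by the labels the other inductions of 39 hours and served for comparison: their clones carried a transgene for a protein kinase, had the same time without Tc, and were likewise compared with their own uninduced arrays. Pfkl was not among them: its labels give 24 hours, although a supplementary table has the time of Sim2 for it. By the study's methods the Hunk clones were grown with a higher dose of puromycin than the one given for selection. This is not stated for Sim2 or Ripk4, and its effect was not tested.

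SIM2 is a transcription factor of the bHLH-PAS family. It binds DNA as a partner of ARNT, a subunit that it shares with the hypoxia-inducible factors and with other family members, and it is known mostly as a repressor. In the embryo it is known for its part in midline and forebrain development, and its gene lies on human chromosome 21. The primers that framed the transgene are shown first because they define what was induced. The restriction site used for cloning is in lower case and the Sim2 part in capitals, starting with the first codon in the forward primer, and the reverse primer holds no stop codon before the site, so that the reading frame could run into the tag.
Sim2 forward primer: ggcgcgccATGAAGGAGAAGTCCAAAAATG
Sim2 reverse primer: ttaattaaCCTGCCGTTGGTGATGATGACC

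The Sim2 transcript itself was looked at first. Neither of the probe sets of the array that are assigned to Sim2 passed the test. The brighter probe set had an RMA signal (log2 scale, as all levels below) of 5.40, 5.40 and 5.59 in the 3 uninduced arrays and 5.47, 5.53 and 5.25 in the induced arrays. The dimmer probe set had 3.07, 2.92 and 2.87 in the uninduced arrays and 3.05, 2.67 and 3.20 in the induced arrays. The groups overlapped in both cases. The log2 changes were −0.05 ± 0.13 (SE) and 0.02 ± 0.13, with exact two-sided permutation p = 0.8 and p = 1, where 3 arrays against 3 allow no p below 0.1. The dimmer exceeded 4.47 to 11.2% of the probe sets of an array and the brighter 46.6 to 53.4%. Where these probes lie on the transcript was not analysed here, and the transgene held coding sequence alone, so the array gives no check that the transgene was expressed. The paper itself followed Sim2 induction in the clones by q-PCR over a time course. It states that array RNA was taken when expression was highest.

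At the level of the whole array, 412 of 45100 probe sets (0.914%) differed between induced and uninduced cells at an adjusted p under 0.05 (limma, rep number as a block), 290 higher (0.643%) and 122 lower (0.271%). The 365 of them that are assigned to 1 gene stand for 313 genes. A change in log2 of more than 1 in size, that is a fold change above 2, was seen in 100 of the 412, of which 78 were rises and 22 falls, and the smallest that passed was 0.62. All 412 moved the same way in the 3 pairs of rep numbers, which passing a fit by pairs nearly requires, so this adds little to the test. In 390 of them the 3 induced arrays did not overlap the 3 uninduced arrays, which was the case in 15.6% of all probe sets. The median change of all probe sets was 0.00037.

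These calls depend on how the arrays are paired. Without the rep number as a block 47 probe sets passed (0.104%), all among the 412. In the study's own Sim2 table the values of rep 1 and rep 2 carry the clone names in opposite order before and after induction, and when the arrays were paired by those names no probe set passed (4597 at an unadjusted p under 0.05, smallest adjusted p = 0.063). Without rep 2 none passed either (3663 at an unadjusted p under 0.05), without rep 1 157 and without rep 3 1095. The size and the sign of a mean change are the same under every pairing. All genes that passed both with the block and without it are therefore named as such below. They are 34, with 31 rises and 3 falls.

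The markers of mES cells stayed bright after induction. None of the 9 ES cell markers changed by the test: Pou5f1 averaged 12.70 before and 12.62 after induction, Nanog 12.31 and 12.27, Sox2 12.14 and 12.28, and the mean over the list lay between 12.00 and 12.23 in uninduced and between 12.07 and 12.26 in induced arrays. Fgf4 read 10.08, 9.91 and 10.20 before and 10.49, 10.52 and 10.60 after induction, a rise of 0.47 that did not pass (adjusted p = 0.0951). Of the 10 markers of primitive and visceral endoderm, 7 of mesoderm, 8 of trophoblast and 9 of feeder fibroblasts none passed. Of the trophoblast markers 2 had changes above 0, Ascl2 (0.67, adjusted p = 0.053) and Tfap2c (0.63, adjusted p = 0.118), both without overlap. With 3 arrays a state, not passing does not show that a marker was unchanged. Of the 9 markers of neural progenitors and neurons 1 passed, Tubb3, which fell, as did 0.271% of all probe sets. Pax6, Sox1, Dcx, Zic1, Otx1, Olig2 and Neurog2 had means of 2.75 to 5.65 in both states. Nes was brighter, with means of 7.46 before and 7.59 after induction, and did not pass. The mean over that list was 5.00 to 5.12 in uninduced and 4.88 to 4.97 in induced arrays. In bulk RNA fewer cells of a type and less RNA per cell cannot be told apart.

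Among the rises, Rab3il1, which encodes an exchange factor that activates Rab GTPases of vesicle traffic, had the largest. Its probe set with the largest change read 6.52, 6.17 and 6.74 in uninduced cells and 8.39, 8.65 and 8.59 in induced cells. Every induced array lay more than 1 unit above every uninduced array, and the mean rose by 2.07 ± 0.15 (SE) in log2 (4.19-fold, adjusted p = 0.0299). The gene also passed without the block (adjusted p = 0.017), and of its 6 probe sets 3 rose, by 2.07, 1.82 and 1.25, while the other 3 were at levels of 2.42 to 4.27 and did not pass. No other of the 19 inductions on this array reached its change: the next was Pdxk with 1.04.

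Genes best known from neurons moved in both directions. Map2, a microtubule-associated protein of dendrites, read 4.63, 4.04 and 4.22 before and 6.11, 6.06 and 5.94 after induction. The groups were well apart, and the rise of 1.75 ± 0.13 passed with the block (adjusted p = 0.0299) and without it (adjusted p = 0.0217), although the other 3 of its 4 probe sets, at levels of 3.60 to 4.20, did not pass. Neurod1, a neurogenic bHLH factor, read 7.60, 7.34 and 7.40 before and 9.18, 8.66 and 8.69 after induction. It rose by 1.40 ± 0.11 and by 1.26 ± 0.12 in its other probe set, and both passed with and without the block. Dner, a transmembrane protein of neurons described as a Notch ligand, read 2.86, 2.59 and 3.07 before and 4.32, 4.21 and 5.69 after induction. Its groups did not overlap, but the induced arrays were spread more widely, and the rise of 1.90 ± 0.22 passed with the block (adjusted p = 0.0327) and not without it (0.0888). Its other probe set rose by 1.69. Nefl, the light neurofilament, went the other way. It read 8.15, 8.14 and 8.27 before and 6.84, 7.41 and 6.79 after induction, a fall by 1.17 on the log2 scale. Tubb3, the neuronal beta-tubulin, fell by 0.88 (adjusted p = 0.0468), and Ngfr, the p75 neurotrophin receptor, fell by 1.01 (adjusted p = 0.0484) with a second probe set that fell by 0.67. Of the 27 measured neuronal differentiation genes 2 rose and 2 fell, beside 0.643% and 0.271% of all probe sets, with a median change of −0.02. Ank3, the ankyrin of the axon initial segment, rose by 1.38 ± 0.15 with and without the block and in 3 of its 6 probe sets.

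**Figure D1:**
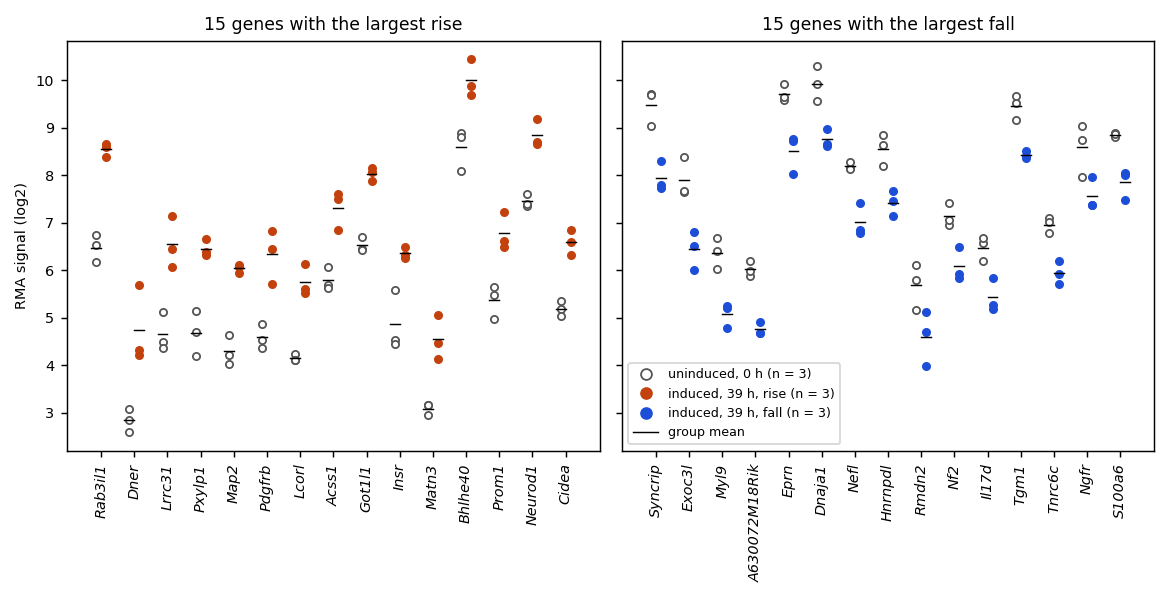
RMA signal (log2) in each of the 3 uninduced arrays (open points) and 3 induced arrays (filled points) for the 15 genes with the largest rise (left) and the 15 with the largest fall (right), with short lines at the group means. The points of the states do not overlap in any of them, as the choice required, and the rises span 1.39 (Cidea) to 2.07 (Rab3il1), the falls −1.0 (S100a6) to −1.54 (Syncrip).

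Receptors and signalling genes formed another part of the rises. Insr, the insulin receptor, read 4.54, 4.45 and 5.59 in uninduced and 6.32, 6.26 and 6.49 in induced arrays. The third uninduced array stood about 1 unit above the other two and still below all induced arrays, and the rise was 1.50 ± 0.19 (adjusted p = 0.0353; 0.0841 without the block). Its other probe sets, at levels of 3.34 to 4.81, did not pass. Pdgfrb, a receptor for platelet-derived growth factor, read 4.36, 4.54 and 4.86 before and 6.45, 6.83 and 5.71 after induction in 1 probe set, which rose by 1.75 ± 0.26, whereas the other and brighter probe set had a change of 0.43 that did not pass. Met, the receptor of hepatocyte growth factor, rose by 1.00 and Kit, the stem cell factor receptor, by 0.83, both with the block and not without it (adjusted p = 0.34 and 0.202). Among 31 receptor tyrosine kinases measured by their brightest probe set these 3 (Insr, Met and Kit) rose, beside 0.643% of all probe sets. None fell, and the median change was 0.05. Of 27 insulin and FOXO signalling genes Insr, Btg1 (1.07) and Ccng2 (1.02) rose, beside the same 0.643%, and none fell. The list's median change was 0.25, against 0.08 after Hunk and 0.05 after Ripk4 induction. Neither the upstream member Irs1 (0.55, adjusted p = 0.183) nor Foxo3 (0.68, adjusted p = 0.0744) passed.

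Txnip led the rises of a list of antiproliferative genes. It encodes a protein that binds thioredoxin and lowers glucose uptake, and it read 9.77, 9.55 and 9.78 before and 10.91, 10.95 and 10.89 after induction. Arrays of a state lay close together, and the rise of 1.22 ± 0.11 passed with and without the block. Of the 27 antiproliferative and cell cycle inhibitor genes 5 rose, beside 0.643% of all probe sets, and none fell. The 5 were Txnip, Btg1, Ccng2, the retinoblastoma gene Rb1 (0.74) and Trp53inp1 (0.73). The changes of 24 of the 27 were above 0 and the median was 0.23, while the median after Hunk and Ripk4 induction was 0.18 in both. With no block 1 of the 5, Txnip, remained.

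Hypoxia-response genes gave the list with the most rises, 9 of 40 measured beside 0.643% of all probe sets, with none that fell and a median change of 0.38. The share counts every probe set and the list the brightest of each gene, so they are not like for like. Bhlhe40, a bHLH repressor of the clock and of hypoxic cells, read 8.88, 8.08 and 8.79 before and 9.69, 9.87 and 10.43 after induction, a rise of 1.41 ± 0.19. Bnip3, a mitochondrial protein of mitophagy, read 11.21, 10.78 and 11.02 before and 12.17, 12.12 and 12.16 after induction. The induced arrays were nearly equal, and the rise of 1.14 ± 0.11 passed without the block too (adjusted p = 0.0391). Aldoc (aldolase C) rose by 1.23, Ndufa4l2 (a subunit-like protein of respiration) by 1.15, Ddit4 (an inhibitor of mTORC1) by 0.97, Egln3 (a prolyl hydroxylase that marks HIF for decay) by 0.91, Ero1a (an oxidase of the endoplasmic reticulum) by 0.85, and the collagen prolyl hydroxylases P4ha1 and P4ha2 by 0.83 and 0.73. Bnip3 and Ddit4 passed without the block, and so did P4ha1 in its other probe set (1.00, adjusted p = 0.049994). Car9 (0.61) and Adm (0.51) did not pass. Members of this list also moved in the other inductions of 39 hours. The list's median was 0.17 after Hunk and 0.43 after Ripk4 induction. All 9 had a change above 0 in both, and 3 of the 9 had a larger change after Ripk4 than after Sim2 induction (Egln3 1.74, Ndufa4l2 1.47 and Bnip3 1.31). No member passed the test of the difference described below.

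Promoters of these genes were searched for the letters that bHLH-PAS dimers are known to bind, on both strands of the window from 250 bases before to 50 after the first listed start of a gene (RefSeq, build GRCm38.p6, 14453 of the genes tested). TACGTG, the letters known for SIM and ARNT, were in 3.33% of all windows, in 8 of 174 genes that rose (4.6%) and in 2 of 72 that fell (2.78%). The core ACGTG, which TACGTG and CACGTG contain, was in 23.2% of all windows, 29.3% of those that rose and 19.4% of those that fell. GCGTG was in 44.2%, 53.4% and 56.9%. Of the hypoxia list 33 genes had a window, of which 18 held ACGTG (54.5%), and the 7 that rose and had a window all held it. Such a match is a description and no evidence of binding. The 250 bases before the start are printed for Rab3il1, the gene with the largest rise, and for Bnip3 and P4ha2 of the hypoxia list, in lower case with CACGTG or TACGTG in capitals. Rab3il1 (chr19:10017944-10018193, plus strand) has CACGTG starting 42 and 15 bases before the start, Bnip3 (chr7:138909507-138909756, minus strand) 108 bases before it, and P4ha2 (chr11:54100674-54100923, plus strand) TACGTG 79 bases before it. CACGTG was in 9.02% of all windows, in 8.62% of those that rose and in 5.56% of those that fell, so it was not more frequent among either.
Rab3il1: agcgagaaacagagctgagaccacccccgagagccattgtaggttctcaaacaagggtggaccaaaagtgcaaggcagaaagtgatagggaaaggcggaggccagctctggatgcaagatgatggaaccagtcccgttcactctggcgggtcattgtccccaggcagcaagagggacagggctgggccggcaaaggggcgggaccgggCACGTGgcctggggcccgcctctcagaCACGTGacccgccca
Bnip3: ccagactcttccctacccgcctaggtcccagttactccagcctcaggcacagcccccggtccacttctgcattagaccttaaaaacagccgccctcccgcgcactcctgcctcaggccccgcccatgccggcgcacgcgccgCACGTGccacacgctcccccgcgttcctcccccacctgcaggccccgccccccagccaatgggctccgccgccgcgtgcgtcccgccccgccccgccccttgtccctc
P4ha2: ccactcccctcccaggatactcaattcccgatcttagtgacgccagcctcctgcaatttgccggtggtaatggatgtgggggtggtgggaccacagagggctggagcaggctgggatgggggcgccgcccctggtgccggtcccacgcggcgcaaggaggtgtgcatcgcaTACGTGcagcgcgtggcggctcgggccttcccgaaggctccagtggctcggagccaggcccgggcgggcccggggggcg

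The other rises had varied roles. Acss1, an acetyl-CoA synthetase of mitochondria, read 5.70, 5.63 and 6.08 before and 6.84, 7.51 and 7.60 after induction and rose by 1.52 ± 0.15. Cidea, a protein of lipid droplets, read 5.19, 5.36 and 5.03 before and 6.84, 6.32 and 6.59 after induction, with a rise of 1.39 ± 0.15 that passed with and without the block. Lcorl, a relative of a nuclear receptor corepressor, read 4.23, 4.11 and 4.11 before and 5.60, 6.13 and 5.51 after induction and rose by 1.60 ± 0.15, also without the block. Its other 5 probe sets had changes of −0.06 to 0.90 that did not pass. Pxylp1 (a phosphatase of glycosaminoglycan synthesis) rose by 1.78 and Got1l1 (a relative of aspartate aminotransferase) by 1.50, both with and without the block, while their brightest probe sets had changes of 0.85 and 0.48 that did not pass. Lrrc31 rose by 1.89, Matn3 (a matrix protein of cartilage) by 1.46 and Prom1 (prominin, a protein of membrane protrusions) by 1.41 with the block and not without it. Further genes that passed under both fits were Tcn2 (transcobalamin, 1.29), Lamp2 (a lysosomal membrane protein, 1.10), Gch1 (GTP cyclohydrolase, 1.11), Crabp2 (a carrier of retinoic acid, 1.07), Creg1 (0.93), Setd7 (a lysine methyltransferase, 0.89), Rab11fip5 (1.10) and S100a13 (0.96). The rest of them were Armh4 (1.34), Armcx3 (1.28), Mmd (1.11), the formin Diaph2 (1.03), Baiap2l1 (1.00), the dehydrogenase Dhrs7 (0.97), Tmem191c (0.96), Ttc21b of transport in cilia (0.96), the methyltransferase Etfbkmt (0.93), the calcium sensor Hpcal1 (0.92) and the acyl-CoA thioesterase Acot1 (0.90). For Tcn2 3 of 5 probe sets rose and for Lamp2 all 4.

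Syncrip (hnRNP Q), an RNA-binding protein of splicing and translation, had the largest fall. It read 9.71, 9.69 and 9.03 before and 8.29, 7.79 and 7.73 after induction. All induced arrays lay below all uninduced arrays, and the fall was −1.54 ± 0.14 (adjusted p = 0.0327; 0.0549 without the block). Another of its 5 probe sets fell by 0.77, and the brightest had a change of −0.54 that did not pass. Hnrnpdl, a relative of hnRNP D, read 8.20, 8.64 and 8.84 before and 7.15, 7.45 and 7.66 after induction. It fell by 1.14 here and by 0.81 in a second probe set, whereas 2 of its 7 probe sets had changes above 0 (0.66 and 0.42) that did not pass. Rbm14, a coactivator and paraspeckle protein, fell in 4 of 5 probe sets, by 0.75 to 0.99. Among 38 SR proteins, SR kinases and splicing regulators Cirbp (−0.90), Sfpq (−0.83) and Rbm14 (−0.80 in its brightest probe set) fell and none rose. Of all probe sets 0.271% fell. The list's median was −0.21, with −0.02 after Hunk and −0.04 after Ripk4 induction, and 8 of the 38 changes were above 0. Of the 28 hnRNP proteins none passed by its brightest probe set, with a median of −0.15. Of the 30 ribosome biogenesis genes none passed by its brightest probe set either, but 29 changes were below 0 and the median was −0.22, against −0.05 after Hunk and 0.0043 after Ripk4 induction.

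The remaining falls included structural and signalling genes. Exoc3l, a relative of an exocyst subunit, read 7.65, 8.38 and 7.66 before and 6.52, 6.81 and 6.01 after induction and fell by 1.45. Myl9, a regulatory light chain of myosin, read 6.02, 6.67 and 6.39 before and 5.20, 4.79 and 5.25 after induction and fell by 1.29. Dnaja1, a cochaperone of Hsp70, read 9.56, 9.91 and 10.29 before and 8.65, 8.62 and 8.97 after induction and fell by 1.17, while its brightest probe set had a change of −0.22 that did not pass. Of 29 heat shock proteins and cochaperones none passed by its brightest probe set. The falls that passed both with the block and without it were A630072M18Rik (5.89, 5.98 and 6.19 before, 4.68, 4.69 and 4.90 after, −1.26), Pax8, a paired-box factor (5.94, 5.97 and 5.86 before, 4.83, 5.06 and 5.04 after, −0.95), and Tlk2, a kinase of chromatin assembly (8.05, 8.07 and 7.87 before, 7.16, 6.96 and 6.97 after, −0.97). The groups overlapped in none of these 3 genes. Other falls that passed with the block were those of Eprn (−1.21), the microtubule regulator Rmdn2 (−1.09), Nf2 (merlin, −1.06) and the cytokine Il17d (−1.05). The transglutaminase Tgm1 (−1.02), Tnrc6c of the microRNA silencing complex (−1.02) and the calcium-binding S100a6 (−1.0) likewise passed. The brighter probe sets of Tnrc6c, with changes of 0.06 and 0.02, did not pass, nor did the brightest of Nf2 (−0.11).

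**Figure D2:**
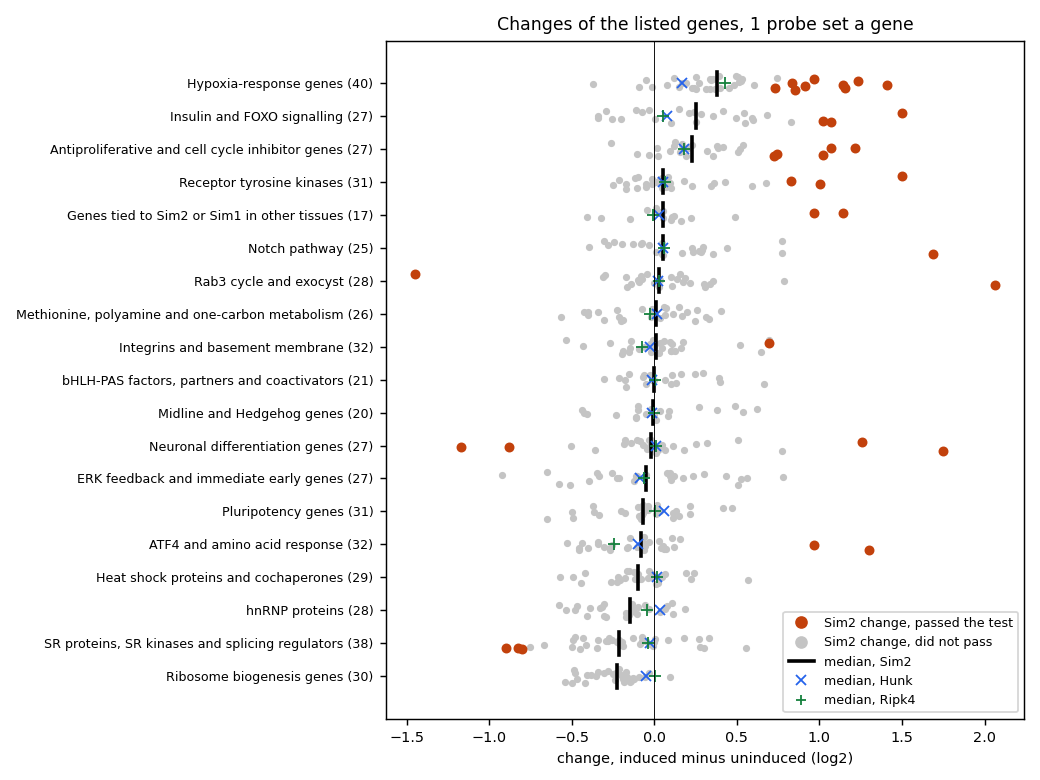
Change after Sim2 induction (log2, horizontal axis) of each measured gene of the 19 gene lists (rows, number of genes in brackets), in orange where the gene passed the test and in grey where it did not, with a black bar at the list's median and a cross and a plus at its median after Hunk and Ripk4 induction. Hypoxia-response genes have the highest median (0.38), which Ripk4 induction exceeds (0.43), and ribosome biogenesis genes the lowest (−0.22).

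Lists close to the known biology of Sim2 were counted next. Of the 21 bHLH-PAS factors, partners and coactivators none passed by its brightest probe set, with a median change of 0.0012, and Arnt, the DNA-binding partner, had a change of 0.39 (adjusted p = 0.277). Hif3a, a family member that can oppose the other HIF subunits, passed in 1 probe set (0.89) and had a change of 0.66 in its brightest (adjusted p = 0.0583). Of the 20 midline and Hedgehog genes none passed: Shh, a ligand tied to SIM2 in the forebrain, had a change of −0.41 (adjusted p = 0.217) and Ptch1 of 0.62 (adjusted p = 0.214). Of the 17 genes tied to Sim2 or Sim1 in other tissues 2 rose (beside 0.643% of all probe sets), Bnip3 and Mmp2 (0.96), a matrix metalloproteinase, and none fell. Pluripotency genes (31 measured), ERK feedback and immediate early genes (27) and methionine, polyamine and one-carbon genes (26) had no member that passed, with medians of −0.07, −0.05 and 0.01. Dner was the 1 riser of 25 Notch pathway genes and the basement membrane protein Nid1 (0.69) that of 32 integrin and basement membrane genes. Of all probe sets 0.643% rose, and 1 member that passed says little about its list. Rab3il1 and Exoc3l were the 2 of 28 genes of the Rab3 cycle and exocyst that passed, in opposite directions, beside 0.914% of all probe sets. In the ATF4 and amino acid response list 2 of 32 rose, Ddit3 and Ddit4, beside 0.643% of all probe sets. None of that list fell, while its median was −0.08, below that of all probe sets.

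Which of these changes set Sim2 apart from the other inductions of 39 hours was asked by testing the Sim2 change minus the mean of the Hunk and Ripk4 changes (limma, 18 arrays, rep number as a block). In fits of their own, 3 probe sets passed after Hunk and 8 after Ripk4 induction. Most of the Sim2 response nevertheless shared its direction with them. Of the 412 probe sets 372 had a change of the same sign after Hunk and 352 after Ripk4 induction. In 403 the Sim2 change was larger in size than both, but the 412 were chosen by that change. The same counts were not made over all probe sets. The difference passed in 44 of 45100 probe sets (0.0976%), 29 above and 15 below 0, which stand for 38 genes, and 36 of the 44 are among the 412. None passed without the block (2668 at an unadjusted p under 0.05), 5 with the Sim2 arrays paired by clone name, and 3, 18 and 97 without Sim2 rep 2, rep 1 and rep 3. With Pfkl taken as a further induction of 39 hours 124 passed, 39 of the 44 among them.

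Dner had the largest difference above 0, 2.10 ± 0.22 (adjusted p = 0.0121), from a Sim2 change of 1.90 beside −0.05 after Hunk and −0.35 after Ripk4 induction. Lcorl followed with 1.84 (Sim2 1.60, Hunk −0.15, Ripk4 −0.34). Ddit3, the stress-induced factor CHOP, read 8.15, 7.79 and 7.43 before and 9.04, 9.18 and 9.04 after Sim2 induction, a rise of 1.30, while its changes after Hunk and Ripk4 induction were −0.59 and −0.38, so that the difference was 1.78 ± 0.20. Map2 (1.39), Insr (1.32) and Cidea (1.30) also differed. So did Rab11fip5, an effector of Rab11 in recycling (1.15), B4galnt2, a glycosyltransferase (1.12), S100a13 (1.03) and Gch1 (1.02). Among the listed genes by their brightest probe set, Met (0.94), Nid1 (0.72) and Dusp4, a phosphatase that restrains ERK (0.81), passed besides Map2, Dner, Insr and Ddit3. The Sim2 change of Dusp4 itself, 0.50, did not pass. Rab3il1, with the largest rise, had a difference of 1.84 that did not pass (adjusted p = 0.0706).

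Below 0, the difference of Dnaja1 was −1.03 and that of Hnrnpdl −0.99 ± 0.11 (adjusted p = 0.0121), each with changes between −0.26 and −0.04 after the other 2 inductions. Rbm14 (−0.88), the syntaxin Stx8 (−0.86) and Pax8 (−0.83) also differed. For Stx8 this holds for the dimmest of its 3 probe sets, while the brighter ones had changes of 0.28 and 0.39 after Sim2 induction that did not pass. For Enox1, an oxidase of the cell surface, the Sim2 change was −0.84 and the others were 0.16 and 0.41, with a difference of −1.13. For 4 genes the Sim2 change itself did not pass: Mep1b (−0.50), Irgm1 (−0.76), Aire (−0.40) and 1700097N02Rik (−0.32). Aire, the regulator of antigen expression in the thymus, had a change of 0.82 after Ripk4 induction and of −0.07 after Hunk induction, and its difference was −0.77. Syncrip had a difference of −1.27 that did not pass (adjusted p = 0.062).

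**Figure D3:**
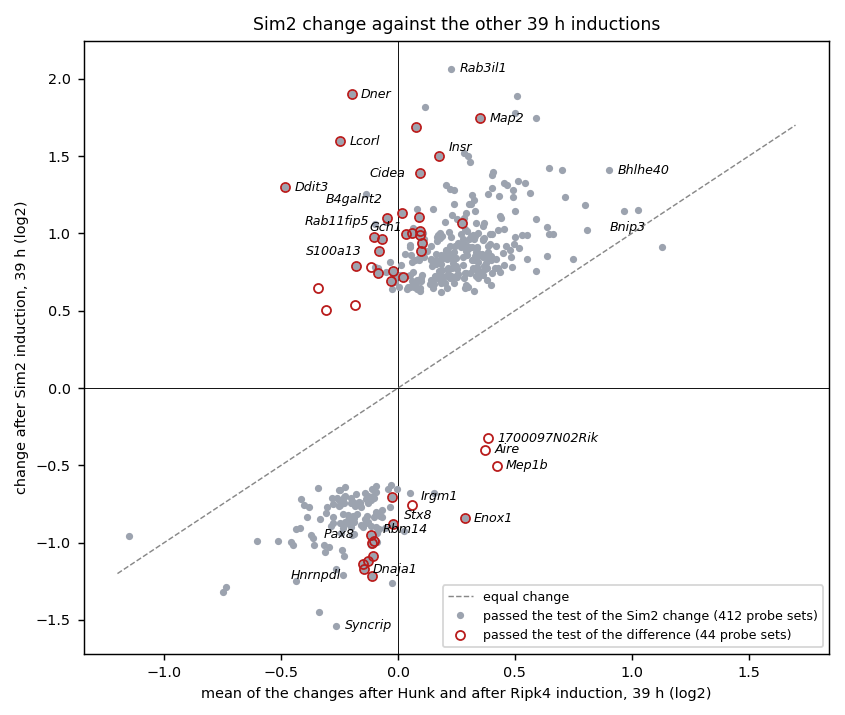
Change after Sim2 induction (log2, vertical axis) against the mean of the changes after Hunk and Ripk4 induction (log2, horizontal axis) for the 412 probe sets that passed the test of the Sim2 change (grey) and the 44 that passed the test of the difference (red rings), with a dashed line where both are equal. Dner, Lcorl and Ddit3 lie left of 0 on the horizontal axis and above 1 on the vertical axis, while Bnip3 lies close to the dashed line.

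Across all 19 inductions on this array, which were sampled after 24, 39 or 48 hours by the labels, the Sim2 change was the highest for 222 of the 290 probe sets that rose and the lowest for 102 of the 122 that fell. These were chosen by their Sim2 change, so the counts are a description. Of the 15 named rises 13 were highest after Sim2 induction. The exceptions were Prom1, which changed by 2.25 after Nrip1 induction, and Bhlhe40, with 1.84 after Pdxk induction. Of the 15 named falls 14 were lowest after Sim2 induction, and the exception was Myl9, with −1.42 after Pdxk induction. Exoc3l, which fell here, changed by 1.95 after Erg induction. The direction of the named changes was widely shared. After Pdxk and after Aire induction, both at 48 hours, all named rises and falls but Dner moved the same way as after Sim2 induction.

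**Figure D4:**
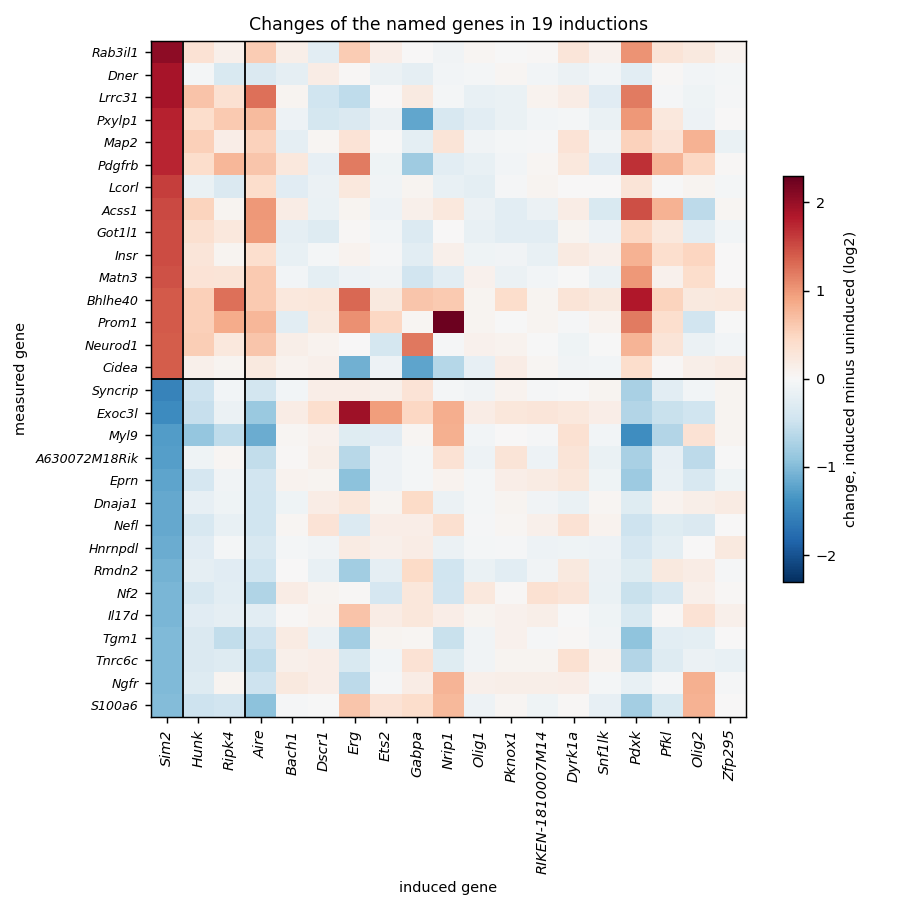
Change (log2, colour) of the 15 named rises and 15 named falls (rows) in the 19 inductions (columns), with Sim2, Hunk and Ripk4, all at 39 hours, first. Rab3il1 has 2.07 with Sim2 and at most 1.04 elsewhere. The columns of Pdxk and Aire, at 48 hours, have the sign of the Sim2 column in all rows but Dner. The Hunk column has it in all rows but Dner and Lcorl.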

How the data were processed

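RNA of 6 Sim2 arrays (Affymetrix Mouse 430_2), 3 uninduced and 3 induced for 39 hours, was analysed, with the arrays of Hunk and Ripk4 for comparison. The deposited values are log2 signals that the authors made with RMA (affy package, names per the labels, versions not given in the sources used here) on the 6 arrays of each experiment together, so that levels were compared within an experiment and changes between experiments. The study itself used a regularized t-test of the Cyber-t kind. Deposited files of another array type and the comparisons tabulated by the study were not used, apart from its clone names.

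Of 45101 probe sets 34958 have 1 gene in the array's annotation, 932 several and 9211 none; 1 has no value in the Sim2 arrays, which leaves 45100. limma 3.58.1 in R 4.3.3 fitted induced minus uninduced with the biological rep number as a block, with Benjamini-Hochberg adjustment over all probe sets and a threshold of 0.05. The numbers were taken as pairs because the labels number the arrays of both states in this way. Once deviations were taken from the mean of a state, the arrays of a number correlated by 0.399, 0.374 and 0.132. For the pairing by clone name the values were −0.518, 0.0975 and 0.132. Both sets of values come from the tested arrays themselves, so they do not settle which pairing is right. The difference from Hunk and Ripk4 was fitted over 18 arrays. By the study's methods the replicates of a transgene are clones that were picked and expanded separately. Array medians were 5.37 to 5.44, and the 3' minus 5' signals of the beta-actin control 0.31 to 0.51 in both states together.

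Named genes are the Sim2 probe sets; in each direction the 15 genes with the largest change past the threshold, the same direction in all pairs and no overlap between states; the 10 with the largest difference from Hunk and Ripk4 past the threshold; genes that passed with the block and without it; and members of gene lists (536 of 556 entries matched) and markers. A list counts 1 probe set per gene, that of the highest mean. The shares of all probe sets printed beside the lists also count dim probe sets and those without a gene, so they are not like for like. Without the dimmest 40% of probe sets 266 rises and 115 falls passed. Lists and members were chosen with earlier results of these data known, so no list was tested as a set. Promoters are those of RefSeq (GRCm38.p6). Alternatives were the fit without the block, pairing by clone name, leaving out each rep, leaving out the dimmest 40% of probe sets, trend and robust variances, a second quantile normalization, the methods' t-test, the Cyber-t kind (prior weight 10, window 101), 1 fit over all Mouse 430_2 arrays and a threshold of 0.01. The fits were tested on simulated data.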

Additional observations from a re-analysis of the deposited data

Results flagged for a closer look

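The 20 genes named for the difference between experiments were singled out because the change after Sim2 induction differed from the mean of the Hunk and Ripk4 changes by the test of the difference itself (limma, adjusted p under 0.05). Above 0, the differences in log2 were 2.10 for Dner, 1.84 for Lcorl, 1.78 for Ddit3, 1.39 for Map2, 1.32 for Insr and 1.30 for Cidea. They were 1.15 for Rab11fip5, 1.12 for B4galnt2, 1.03 for S100a13 and 1.02 for Gch1. Below 0, they were −1.13 for Enox1, −1.03 for Dnaja1, −0.99 for Hnrnpdl, −0.92 for Mep1b and −0.88 for Rbm14. They were −0.86 for Stx8, −0.83 for Pax8, −0.82 for Irgm1, −0.77 for Aire and −0.71 for 1700097N02Rik. Without the block none of the 20 passed, and against Hunk alone none did. A clone of its own carries each transgene, so that the transgene, the clones and the time of the experiment cannot be told apart.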

How the results depend on the processing

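The count of 412 probe sets for the Sim2 change became 47 with no replicate block, 0 with the arrays paired by clone name, 1 by the methods' t-test and 0 at an adjusted p under 0.01. It became 815 by the Cyber-t kind of test, 999 with trend and robust variances, 5248 (409 of the 412 among them) in 1 fit over all arrays of the type and 1044 in that fit with no replicate block, which was chosen after seeing the data. Leaving out each rep gave 0 to 1095. Without the dimmest probe sets 381 passed and after a second quantile normalization 605. The count of 44 for the difference from Hunk and Ripk4 became 0 with no replicate block, 5 with the clone-name pairing and 124 with Pfkl as a further experiment (both chosen after seeing the data; Rbm14 then no longer passed), 159 with trend and robust variances, 0 against Hunk alone, 8 against Ripk4 alone and 0 at an adjusted p under 0.01. Leaving out each Sim2 rep gave 3 to 97, without the dimmest probe sets 37 passed and after quantile normalization 42. The changes of the 2 Sim2 probe sets lay between −0.13 and 0.16 for the dimmer and between −0.14 and 0.10 for the brighter without each rep, and both changed sign without rep 3. Of the 30 genes named for the largest change 8 passed with no replicate block, 27 without rep 1, none without rep 2 or with the clone-name pairing, 29 without rep 3 and 30 in the fit over all arrays. No change of direction was possible among the 30, because they were chosen to move the same way in all 3 pairs. The fits that keep every Sim2 array at its deposited values leave the mean change as it is, which a second quantile normalization does not. Of the 19 lists 11 had another count of members (by over 1.5 times) with no replicate block. The causes were not tested. Leaving out a rep leaves 2 arrays per state.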

Other observations

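Some genes outside the lists were chosen after their values were seen. Ccnd2, the cyclin D2 of G1 phase, fell by 0.94, 0.93 and 0.89 in 3 probe sets. Its levels differed between reps more than between states: the first of these probe sets read 7.60, 7.32 and 6.31 before and 6.55, 6.42 and 5.45 after induction, and the fall passed with the block and not without it. Ldhb, the heart subunit of lactate dehydrogenase, rose in 4 probe sets by 0.91 to 1.02. Id4, an inhibitor of bHLH factors, rose by 1.19 and 0.98. Hexa, a lysosomal hexosaminidase, read 8.92, 9.05 and 8.83 before and 10.29, 10.73 and 9.73 after induction and rose by 1.31. Ifi30, a lysosomal thiol reductase, rose by 1.19 and Neu1, a lysosomal sialidase, by 0.92. Lss, the lanosterol synthase, rose by 1.12, Msmo1, a sterol oxidase, by 0.83 and Cyp51, a sterol demethylase, by 0.78 and 0.67 in its 2 probe sets. For none of these genes did the difference from Hunk and Ripk4 pass.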
